A study of Mus musculus with 6 samples.

Results

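A set of 10 genes of the epidermis, KLF4, TRP63, GRHL1, GRHL3, OVOL1, DSP, DSC3, DSG3, PKP1 and EPPK1, were followed across 6 mouse tissue sections in which histone marks had been mapped by position. The genes were taken by symbol from a given list and make up 10 of the 19378 genes measured in all. Every gene was held by the control paw and by the embryo sections for H3K27ac and H3K27me3, 9 by the embryo section for H3K4me3, 8 by the arthritis paw and 5 by the brain. OVOL1 and DSG3 were not analysed in the arthritis paw, OVOL1 was not analysed for embryo H3K4me3, and KLF4, OVOL1, DSC3, DSG3 and EPPK1 were not analysed in the brain.

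The paws came from adult mice, 1 labelled with collagen-induced arthritis and 1 labelled control, both at 42 days, and carried an antibody against H3K27ac. They had been fixed, decalcified and embedded in paraffin, and the sections, 4 µm thick, were taken at the level of the talus in the ankle. The embryo was wild-type at stage E11.5, with 1 whole-embryo cryosection of 16 µm for each of H3K27ac, H3K27me3 and H3K4me3, and the brain was a 20 µm cryosection of a wild-type adult for H3K4me3. A spot is a small region of the array and can hold several cells. Each group was 1 section, so no difference could be set against the spread between animals, no test was made, and every interval given is a 95% counting interval that leaves out all other error.

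The epidermis renews itself from a basal layer, whose identity depends on p63, the product of TRP63, and its cells differentiate as they move outward under factors such as KLF4, GRHL1, GRHL3 and OVOL1. Desmosomes bind these cells to each other: the cadherins desmocollin 3 and desmoglein 3 (DSC3, DSG3) meet in the space between cells, plakophilin 1 (PKP1) gathers them at the plaque, and desmoplakin (DSP) ties the plaque to the keratin filaments. Epiplakin (EPPK1) is a cytoplasmic linker of the plakin family that binds keratins. H3K27ac marks active promoters and enhancers, H3K4me3 marks promoters that are active or poised, and H3K27me3 is laid by Polycomb over silent developmental genes.

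Since H3K4me3 and H3K27ac collect at start sites, often in CpG-rich ones, the sequence before the start is given for the member that stood apart in the paws, KLF4, and for the grainyhead pair GRHL1 and GRHL3, whose marks differed in the embryo. Of the 10 genes, 4 matched an entry of the RefSeq promoter table (build GRCm38.p6). The 250 bases before the start run 5′ to 3′ on the strand of the gene, and capitals mark CpG.
KLF4, chr4:55532476-55532725, minus strand: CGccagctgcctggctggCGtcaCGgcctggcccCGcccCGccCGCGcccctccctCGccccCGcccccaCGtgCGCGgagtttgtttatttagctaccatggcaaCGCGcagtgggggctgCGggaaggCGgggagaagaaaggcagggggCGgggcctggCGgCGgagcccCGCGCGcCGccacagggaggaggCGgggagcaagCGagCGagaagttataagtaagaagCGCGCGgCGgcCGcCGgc
GRHL1, chr12:24572037-24572286, plus strand: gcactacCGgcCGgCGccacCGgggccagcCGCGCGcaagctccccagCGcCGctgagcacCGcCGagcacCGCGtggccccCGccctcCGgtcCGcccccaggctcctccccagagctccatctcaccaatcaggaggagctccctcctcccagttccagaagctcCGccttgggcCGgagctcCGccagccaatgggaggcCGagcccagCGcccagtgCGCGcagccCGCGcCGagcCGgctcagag
GRHL3, chr4:135573633-135573882, minus strand: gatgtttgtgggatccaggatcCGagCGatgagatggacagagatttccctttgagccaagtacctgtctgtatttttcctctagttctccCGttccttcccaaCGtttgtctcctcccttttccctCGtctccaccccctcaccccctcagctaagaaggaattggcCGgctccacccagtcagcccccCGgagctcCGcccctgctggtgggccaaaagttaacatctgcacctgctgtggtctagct
The KLF4 window held 32 CpG and 74.0% G and C, and 95.4% of the 32851 windows of this length in the table held fewer CpG. The GRHL1 window held 27 CpG, more than 91.4% of windows did, and the second GRHL1 entry, at chr12:24580469-24580718, held 0. The GRHL3 window held 8 CpG, close to the median window, which held 6 (quartiles 2 and 16). DSP, with 22 CpG at chr13:38151044-38151293, lay above 85.2% of windows. The GC box GGGCGG, read on both strands, occurred 4 times in the KLF4 and DSP windows, 2 times in the first GRHL1 window and 1 time in the GRHL3 window, and at least 1 time in 32.7% of all windows. Such matches describe the letters only. The sources used here do not give the region of each gene over which reads were counted.

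The sections held 403483 (embryo H3K4me3) to 5981684 (control paw) recovered reads in 248 to 1200 spots, with a median of 1179 to 10114.5 reads per spot. A read here is 1 count recovered from the tied ranks of the deposited values, and a level is a gene's reads divided by the mean reads of the 9471 genes held by all sections, so that a level of 1 is the mean gene of a section. That mean was 511 reads in the arthritis paw and 443 in the control paw, 42.3, 56.7 and 30.8 for H3K27ac, H3K27me3 and H3K4me3 of the embryo, and 198 in the brain. Gene lengths in the files' build were not used, so levels are set against each other across sections for 1 gene and not between genes. Marker levels followed the labelled tissues only in part. The 5 neuron markers took 9.05 of 10000 reads in the brain against 3.52 to 5.95 elsewhere (4 of 5 held in the arthritis paw, at 5.95). Shares of all reads also depend on which genes a section holds. By mean level the neuron markers stood at 1.86 in the brain against 0.931 to 1.56 elsewhere. In the brain, 3 of 5 glial markers held took 3.71 of 10000 reads. Cartilage markers took 2.80 in the control paw (5 of 5 held) and 0.999 in the arthritis paw (2 of 5 held), bone markers 1.73 and 2.42, and skeletal muscle markers 2.24 and 4.57 (4 of 5 held in the arthritis paw). Neutrophil markers took 3.72 in the control paw and 1.76 in the arthritis paw (4 of 5 held), and macrophage markers 0.614 and 0.254 (1 of 4 held). Epidermal keratins took 2.37 of 10000 reads in the control paw, with all 12 held, and 3.59 in the arthritis paw, with 7 held and KRT14 among those not analysed there. They took 3.79 in the brain, with 6 held, a tissue with no epidermis. No held marker of the epidermis was at 0 in any section.

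Among the regulators, TRP63 had its highest level in the arthritis paw and lay above the mean gene in every section for H3K27ac. It was represented by 3102 reads in the arthritis paw, 1435 in the control paw, 139, 81 and 12 in the embryo sections for H3K27ac, H3K27me3 and H3K4me3, and 145 in the brain. The corresponding levels were 6.07 (5.86 to 6.29), 3.24 (3.07 to 3.41), 3.28 (2.76 to 3.88), 1.43 (1.13 to 1.77), 0.390 (0.202 to 0.681) and 0.732 (0.618 to 0.862). All H3K27ac sections thus lay above the section for H3K27me3, and both H3K4me3 sections lay below the mean gene. The intervals of the embryo H3K27ac section and the control paw overlapped, as did those of the brain and embryo H3K4me3 sections, and the other neighbours in this order were apart. In reads not corrected for gene length, 137 of 11130 genes stood above TRP63 in the arthritis paw and 521 of 19378 in the control paw.

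KLF4, a zinc finger factor of the outer epidermal layers that is also made in many other cell types, had its highest level in the arthritis paw. Its 803 reads there gave a level of 1.57 (1.46 to 1.68), and 199 reads in the control paw gave 0.449 (0.389 to 0.516). The embryo held 16, 15 and 7 reads for H3K27ac, H3K27me3 and H3K4me3, at levels of 0.378, 0.264 and 0.228. The arthritis paw stood apart from the other 4 sections, whose intervals overlapped from each to the next.

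The grainyhead factors GRHL1 and GRHL3, which drive barrier formation, differed in the order of their sections. GRHL1 was highest for embryo H3K27ac, with 103 reads and a level of 2.43 (1.99 to 2.95), followed by the control paw (705 reads, 1.59), the brain (264 reads, 1.33), the arthritis paw (551 reads, 1.08), embryo H3K4me3 (30 reads, 0.975) and embryo H3K27me3 (45 reads, 0.793). GRHL3 was highest for embryo H3K27me3, with 45 reads and a level of 0.793 (0.579 to 1.06), then in the brain (104 reads, 0.525), the arthritis paw (210 reads, 0.411), the control paw (132 reads, 0.298), embryo H3K4me3 (7 reads, 0.228) and embryo H3K27ac (9 reads, 0.213). The first place of GRHL3 overlapped with the second, and its paws were apart from each other. For GRHL1 the embryo H3K27ac section was apart from the control paw, the brain was apart from the arthritis paw, and the other neighbours overlapped. The order of GRHL3 depends on the recovery of reads: by the deposited values, relative to the mean gene, it was highest in the brain (3.08) and for embryo H3K4me3 (2.99), above embryo H3K27me3 (2.29). OVOL1, a zinc finger repressor that acts as cells leave the basal layer, had few reads: 96 in the control paw (0.217), 3 for embryo H3K27ac (0.0709) and 5 for embryo H3K27me3 (0.0881), and these intervals overlapped.

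The desmosome genes DSP, DSC3 and DSG3 lay below the mean gene in every section, in reads not corrected for gene length. DSP had 150 reads in the arthritis paw, 182 in the control paw, 20, 10 and 5 in the embryo for H3K27ac, H3K27me3 and H3K4me3, and 69 in the brain, at levels of 0.293, 0.411, 0.473, 0.176, 0.163 and 0.348. Every neighbouring pair in the order of its levels overlapped, but not every pair further apart in that order. The control paw (0.353 to 0.475) was apart from the arthritis paw (0.248 to 0.344) and from embryo H3K27me3 (0.0845 to 0.324). DSC3 had 116 reads in the arthritis paw (0.227), 59 in the control paw (0.133), and 19, 2 and 2 in the embryo (0.449, 0.0353 and 0.0650). DSG3 had 49 reads in the control paw (0.111) and 6, 2 and 2 in the embryo, each neighbouring pair overlapping. For both cadherins the embryo's H3K27me3 and H3K4me3 sections therefore rest on a pair of reads each.

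PKP1 and EPPK1 departed from this in 1 section. PKP1 had 107 reads for embryo H3K27ac, a level of 2.53 (2.07 to 3.06), against 34 (0.599) for H3K27me3 and 6 (0.195) for H3K4me3, 71 in the brain (0.359), 125 in the control paw (0.282) and 101 in the arthritis paw (0.198). The interval of embryo H3K27ac was apart from the rest, and each later neighbour overlapped the next. EPPK1 had 1407 reads for embryo H3K27ac, a level of 33.2, against 8 for H3K27me3 (0.141), 6 for H3K4me3 (0.195), 320 in the arthritis paw (0.626) and 140 in the control paw (0.316). The embryo value of EPPK1 is a lower bound, because more than 10% of its reads lay where the recovered number is no longer exact. Of the 18943 genes of that section 12 had more reads, and of the 19046 genes of embryo H3K27me3 12389 had more reads than EPPK1 there. EPPK1 supplied 76.9% of the members' reads in the embryo H3K27ac section, and without it they took 7.69 of 10000 reads in place of 33.3.

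**Figure D1:**
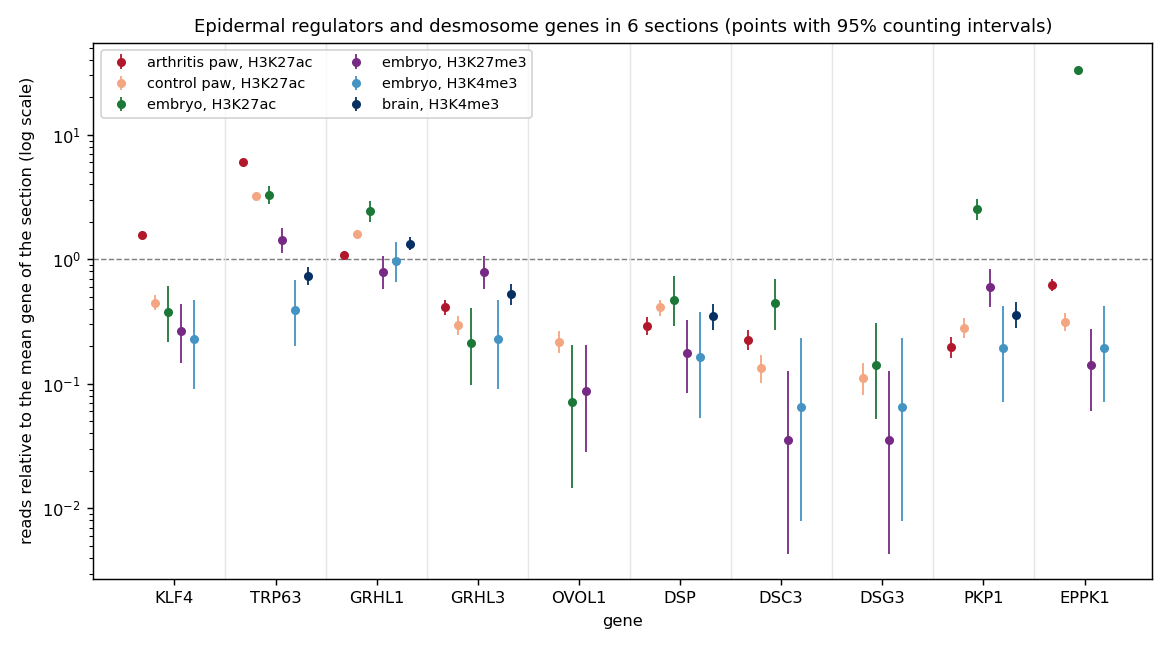
Reads of each gene relative to the mean gene of its section (vertical, log scale; 1 is the dashed line) for the 10 genes (horizontal), with 1 colour per section and bars for the 95% counting interval. EPPK1 for embryo H3K27ac stands at 33.2, far above its other sections, TRP63 stands highest in the arthritis paw at 6.07, and KLF4 stands at 1.57 in the arthritis paw against 0.449 in the control paw.

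The paws were compared to ask how H3K27ac at these genes differed between an arthritic and a control joint. Relative to the 11130 genes held by both, KLF4 was higher in the arthritis paw, TRP63, EPPK1, DSC3 and GRHL3 lay above the median gene by less, and PKP1, DSP and GRHL1 lay below it. Of the 8 genes held by both paws, 1 (KLF4) was at least 1 log2 unit above the median gene and 0 were at least 1 unit below it. Over all genes, 9.84% were that far above and 9.04% that far below, so 1 of 8 is near the share of any genes. The members' median log2 ratio was 0.40 against 0.11 over all genes, whose quartiles were -0.28 and 0.51. Both members that could not be compared, OVOL1 and DSG3, had 96 and 49 reads in the control paw, and genes of few reads were scarcer in the arthritis paw, where 63 genes had fewer than 50 reads against 2418 in the control paw. A gene low in the arthritis paw could thus drop out of the comparison.

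KLF4 was 3.40-fold higher in the arthritis paw (2.91 to 3.99), and on the log2 scale with a pseudocount of 0.1 its ratio was 1.58, above 94.3% of genes. With a pseudocount of 1 the ratio was 0.84 and no longer called. TRP63 was 1.82-fold higher (1.71 to 1.94), with a log2 ratio of 0.85 that lay above 85.6% of genes. EPPK1 was 1.93-fold higher (1.57 to 2.37, log2 ratio 0.78). These counting intervals leave out a fold of 1, yet TRP63 and EPPK1 lay within 1 log2 unit of the median gene. DSC3 had a log2 ratio of 0.47, on 116 and 59 reads, and GRHL3 one of 0.33, on 210 and 132 reads. On the other side, GRHL1 had a ratio of -0.56, or 0.659 times the control paw (0.588 to 0.738), DSP one of -0.41 and PKP1 one of -0.40. The regulators and the desmosome genes were therefore each found on both sides of the median gene. Since a section mixes many cell types, more cells with a mark and more mark per cell cannot be told apart.

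Other genes of the epidermis and of cell junctions also lay on both sides of the median gene in the paws. Of 15 other desmosome and plakin genes, 8 were held by both paws, with a median log2 ratio of -0.05; 0 were higher by 1 unit and 1 was lower, the plakin PLEC, which links intermediate filaments to hemidesmosomes (743 and 2771 reads, -2.08). Of 20 other epidermal and epithelial transcription factors, 19 were held, with a median of 0.24; TFAP2C, an AP-2 factor of early epidermis, was higher (1967 and 732 reads, 1.14), and SOX9, a factor of cartilage and hair follicles, was lower (330 and 630 reads, -1.07). Of 11 adherens and tight junction genes, 9 were held, with a median of 0.33, and TJP1, a tight junction scaffold, was among those higher (at least 4534 reads against 493, 2.86). Of 6 hemidesmosome genes, 2 were held, and LAMB3, a chain of a basement membrane laminin, was higher (1141 and 329 reads, 1.44). Together 4 of 38 held genes of these lists were called higher and 2 lower, where 9.84% and 9.04% of all genes were. The epidermal keratins, 7 of 12 held by both, had a median of 0.46, with KRT10 of the differentiating layers higher (326 and 97 reads, 1.20) and 0 lower. The simple epithelial markers, 4 of 4 held, had a median of -0.22, and only 1 of 4 lay above the median gene. That marker was KRT19, which was called higher (at least 4642 reads against 1698, 1.19), and 0 were called lower. The part of any change in tissue content in these ratios was not tested.

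**Figure D2:**
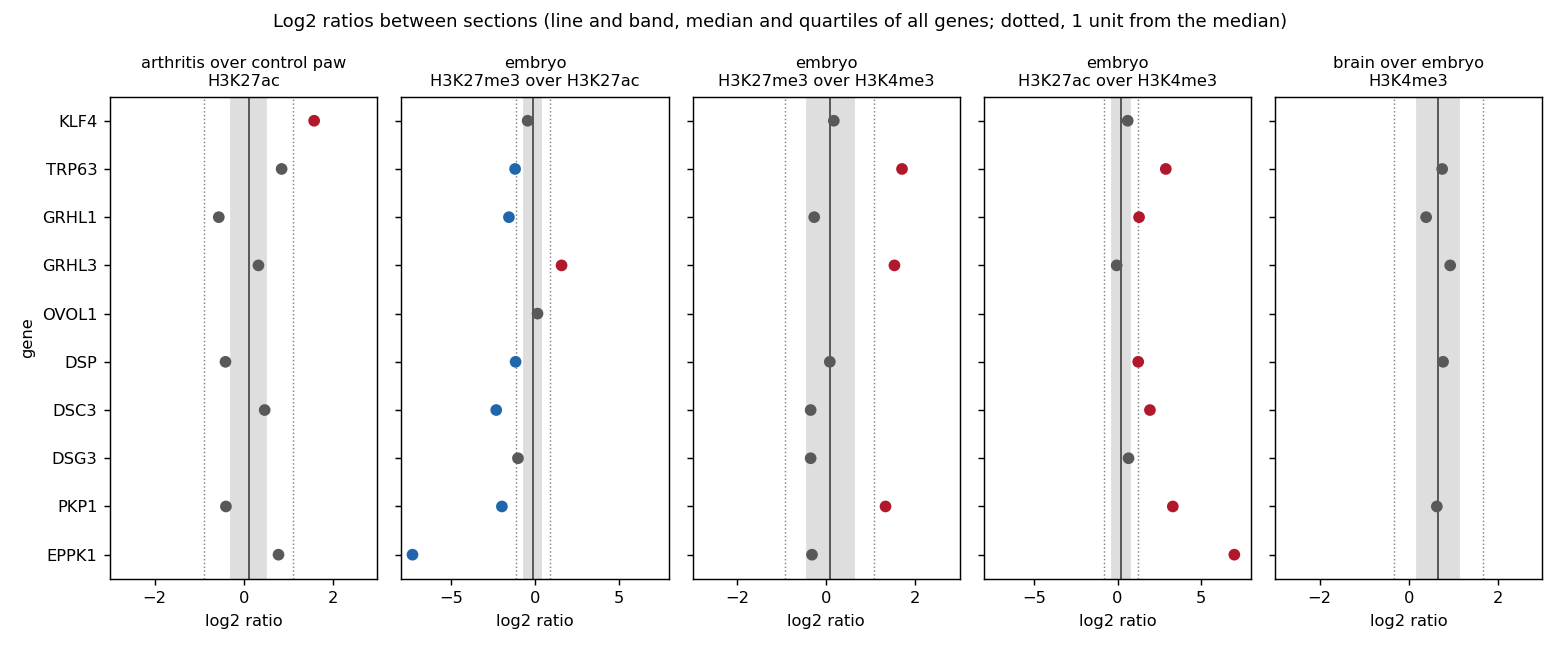
Log2 ratio of each gene (rows) in the 5 comparisons of sections (panels, horizontal axis in log2 units, on a wider scale in the panels that hold EPPK1 for embryo H3K27ac), with the median of all genes as a line, their quartiles as a grey band and 1 unit on either side of the median as dotted lines. Red points were called higher and blue points lower; KLF4 alone passes the line in the paws, and 6 genes pass it toward H3K27ac in each of the panels that set it against another embryo mark.

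The position of the spots was used to ask whether the reads of these genes gathered at the rim of the paw sections, where skin would lie. Outer spots were the first or last 2 occupied spots of each array row or column. In the arthritis paw the members took 10 of 10000 reads in the 273 outer spots, on 1510 reads, and 10 in the 670 inner spots, on 3843, a log2 ratio of 0.01 (-0.08 to 0.09). In the control paw they took 5.16 in 229 outer spots and 5.27 in 325 inner ones, a ratio of -0.03 (-0.13 to 0.07). Member by member, the ratio ran from -0.26 (EPPK1) to 0.48 (DSP) in the arthritis paw and from -0.26 (EPPK1) to 0.59 (OVOL1) in the control paw, and the interval took in 0 for 8 of 8 and 10 of 10 members. The keratins gave -0.05 (-0.19 to 0.10) and -0.03 (-0.19 to 0.12). No gathering at the rim was detectable by this split, at this depth, in either paw. The keratins showed none either, so the split was not shown to separate skin from other tissue. It therefore cannot tell whether the reads of the members follow the epidermis.

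The spread of single members over spots was described by the number of reads per spot, which does not use position. KLF4 had 0 reads in 430 of the 943 arthritis spots, 1 read in 302, 2 reads in 152 and 3 or more in 59, and in the control paw it had 0 in 398 of 554 spots, 1 in 119, 2 in 32 and 3 or more in 5. Spots with at least 1 KLF4 read made up 54.4% of the arthritis paw (51.2% to 57.6%), and its reads spread in proportion to the depth of each spot would have given 54.2%. TRP63 was seen in 91.3% of the arthritis spots, where depth alone would have given 91.4%, and in 79.2% of the control spots, where it would have given 83.5%. That last gap, 4.3 percentage points, was the widest of the 52 pairs of gene and section, and TRP63 there took 1.69 of 10000 reads (1.29 to 2.19) in the shallowest of 5 equal groups of spots and 2.53 (2.32 to 2.74) in the deepest. For genes of few reads both shares are close by construction. Between odd and even array columns the interval of the log2 ratio left out 0 in 3 of the 52 pairs, KLF4 in the arthritis paw (0.21), TRP63 in the control paw (-0.25) and DSP in the brain (1.04). In the embryo H3K27ac section EPPK1 had at least 1 read in 245 of 251 spots, or 97.6% against 97.9% by depth, with a median of 5 and at most 21 reads in a spot. In the brain, where epidermal genes have no tissue of their own, TRP63 was seen in 10.6% of 1200 spots at a median depth of 1179 reads.

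**Figure D3:**
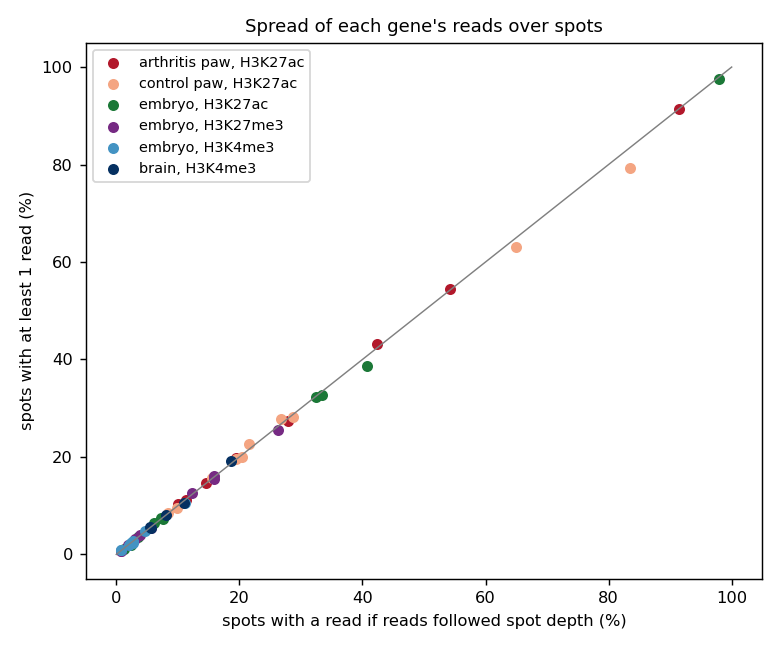
Share of spots with at least 1 read of a gene (vertical, percent) against the share that would hold one if its reads followed the depth of the spots (horizontal, percent), with 1 point per gene and section and the line of equal shares. The points lie along the line, with the largest gap 4.3 percentage points for TRP63 in the control paw.

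The spots of each paw were divided into 5 equal groups along either array coordinate or by depth. As shares of all reads, KLF4, TRP63, EPPK1 and GRHL3 were higher in every group of the arthritis paw than in any control group. For GRHL3 the lowest arthritis group (0.335, by depth) lay just above the highest control group (0.331, first coordinate), a margin that may not hold on another scale. How many of all genes separate in this way was not counted, so separation cannot be read as particular to these members. KLF4 took 1.27 to 1.60 and 1.29 to 1.72 of 10000 reads over the groups of the first and second coordinate in the arthritis paw, against 0.269 to 0.404 and 0.269 to 0.422 in the control paw. By depth it took 1.38 to 1.57 against 0.144 to 0.367, where the lowest control value came from the shallowest group, with 5 reads. TRP63 took 5.20 to 6.08 over the first coordinate in the arthritis paw and 2.22 to 2.54 in the control paw. EPPK1 took 0.525 to 0.665 over the first coordinate against 0.210 to 0.292. GRHL3 took 0.343 to 0.472 over the second coordinate against 0.174 to 0.317. DSC3 did not overlap along either coordinate (0.178 to 0.255 against 0.0702 to 0.113 along the first) but did by depth. The members that were lower in the arthritis paw overlapped along the first coordinate: GRHL1 took 0.902 to 1.13 against 1.10 to 1.28, DSP 0.234 to 0.337 against 0.205 to 0.351, and PKP1 0.152 to 0.227 against 0.192 to 0.232. Shares of all reads are on another scale than the ratios above, because the control paw's total includes genes that the arthritis paw lacks. This lowers every control share, which favours separation of the higher members and overlap of the lower ones. Whether the groups overlap over the genes held by both paws was not worked out. Neither the separations nor the overlaps given here can be carried over to that scale. The groups of a section come from the same animal and are no replicates.

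**Figure D4:**
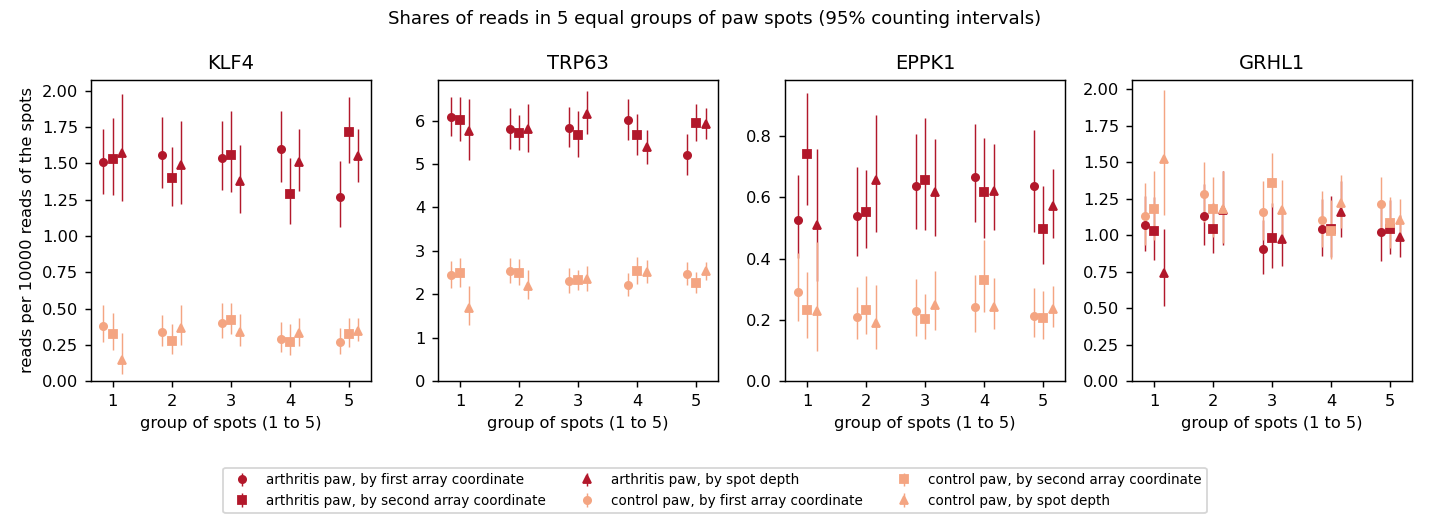
Reads per 10000 reads of the spots (vertical) for KLF4, TRP63, EPPK1 and GRHL1 in 5 equal groups of the spots of each paw (horizontal), taken along either array coordinate or by spot depth, with 95% counting intervals. KLF4 lies between 1.27 and 1.72 in the arthritis paw and between 0.144 and 0.422 in the control paw. The values of GRHL1 overlap on this scale of all reads, which lowers the control shares.

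In the embryo the 3 marks were set against each other at each gene, to ask which mark prevailed at genes of a tissue that is a thin surface layer at this stage. Most of the 10 genes leaned toward H3K27ac. Against H3K27ac, H3K27me3 was lower at 6 of 10 members, EPPK1, DSC3, PKP1, GRHL1, TRP63 and DSP, where 11.6% of all 18653 genes were called lower. It was higher at 1, GRHL3, where 12.3% of genes were called higher. The members' median log2 ratio was -1.18 against -0.12 over all genes (quartiles -0.63 and 0.38). The antibodies differ, so each mark is read relative to the genes of its own section and not as an amount. The 3 embryo comparisons share sections, 1 per mark, and are not independent of each other.

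EPPK1 showed the widest difference: 8 reads for H3K27me3 against 1407 for H3K27ac, a log2 ratio of -7.33, and 0.0107% of genes lay lower. Its size depends on the setting, at -6.23 with the deposited signal, -5.35 with a pseudocount of 1 and -4.84 by the share of spots with a read. PKP1 had 34 against 107 reads (0.233-fold, 0.153 to 0.345), GRHL1 45 against 103 (0.320-fold, 0.220 to 0.458) and TRP63 81 against 139 (0.427-fold, 0.320 to 0.565). DSC3, with 2 against 19 reads, had a ratio of 0.0770-fold (0.00870 to 0.319), and DSP, with 10 against 20, one of 0.366-fold (0.153 to 0.819). GRHL3 went the other way, with 45 reads for H3K27me3 against 9 for H3K27ac, a 3.66-fold difference (1.77 to 8.51) and a log2 ratio of 1.59 above 94.6% of genes. KLF4 (15 and 16 reads), OVOL1 (5 and 3) and DSG3 (2 and 6) had intervals that took in a fold of 1. GRHL1 and GRHL3 thus lay on opposite sides of the median gene. The calls of GRHL1, PKP1 and EPPK1 held under 9 of 9 alternative settings, that of DSC3 under 7 of 8, and those of GRHL3, TRP63 and DSP under 7, 6 and 5 of 9.

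H3K27ac exceeded H3K4me3 at 6 of 9 members and was lower at 0, where 12.9% of 17762 genes were called higher and 12.3% lower. The members' median was 1.29 against 0.20. The log2 ratios were 6.99 for EPPK1 (1407 against 6 reads, and 4.50 to 7.39 over the alternatives), 3.31 for PKP1 (107 and 6), 2.89 for TRP63 (139 and 12), 1.94 for DSC3 (19 and 2), 1.29 for GRHL1 (103 and 30) and 1.24 for DSP (20 and 5). Those of DSG3 (0.66), KLF4 (0.61) and GRHL3 (-0.05) were not called. The calls of EPPK1, PKP1 and TRP63 held under 9 of 9 alternative settings, that of DSC3 under 7 of 8, and those of GRHL1 and DSP under 5 of 9. H3K27me3 exceeded H3K4me3 at 3 of 9 members, TRP63 (81 and 12 reads, 1.70), GRHL3 (45 and 7, 1.53) and PKP1 (34 and 6, 1.33), and was lower at 0, where 13.3% of 17837 genes were called higher and 11.1% lower. The median of the members, 0.08, equalled that of all genes. The call of PKP1 held under 8 of 9 alternative settings, that of GRHL3 under 7 and that of TRP63 under 6, and with a pseudocount of 1 all of these were lost.

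Many of these embryo counts are small: KLF4, GRHL3, DSP, DSC3, DSG3, PKP1 and EPPK1 had 2 to 7 reads each for H3K4me3. The deposited values, before reads were recovered from them, place GRHL3 differently. It stands after 97.7% of genes in the order in which ties were broken, and in the embryo it had a deposited value above 0 in 231 of 251 H3K27ac spots and 205 of 248 H3K4me3 spots, of which 9 and 7 held a recovered read. By the deposited values its H3K27me3 over H3K4me3 ratio was -0.34 in place of 1.53, and it was not called against H3K27ac either.

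The high H3K27ac of EPPK1 in the embryo was not seen, in reads not corrected for length, at the protein-coding genes next to it in the reference order. PUF60 and NRBP2, on one side, had 21 and 24 reads in that section, and BC024139 and PLEC, on the other, had 11 and 37, against at least 1407 at EPPK1. In the control paw EPPK1 had 140 reads, fewer than PLEC, the plectin gene (2771), PUF60 (580) and NRBP2 (264), and more than BC024139 (131). For embryo H3K4me3, PUF60 had 339 reads and NRBP2 had 93, against 6 at EPPK1. At TRP63 the arthritis paw held 3102 reads, against 229 at TPRG and 345 at P3H2 on either side. The control paw held 1435 at TRP63, 255 at TPRG and 77 at P3H2. Relative to the control paw, P3H2 thus rose by more than TRP63, and TPRG had fewer reads. At KLF4 the arthritis paw held 803, against 318 at RAD23B, 738 at ACTL7B and 701 at ACTL7A, the gene beyond ACTL7B. The control paw held 199 at KLF4, 153 at RAD23B, 159 at ACTL7B and 145 at ACTL7A. Relative to the control paw, ACTL7B and ACTL7A thus rose by more than KLF4, and RAD23B by less. More reads in the arthritis paw were therefore not confined to KLF4 among these genes. ZFP462, beyond RAD23B, went the other way, with 530 reads against 1052 in the control paw. In some sections a member and a gene within 2 places of it had sums within 5% of each other: DSP and CAGE1 in the control paw (182 and 189 reads), PKP1 and TMEM9 for embryo H3K27me3 (34 each), EPPK1 and BC024139 for embryo H3K27me3 and H3K4me3 (8 and 6 each), KLF4 and both ACTL7B and ACTL7A for embryo H3K4me3 (7 each), and DSC3 and DSC1, and DSG3 and DSG2, for embryo H3K27me3 (2 each). Among the spots where either gene of such a pair had a read, 0% to 14.5% held the same number at both.

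**Figure D5:**
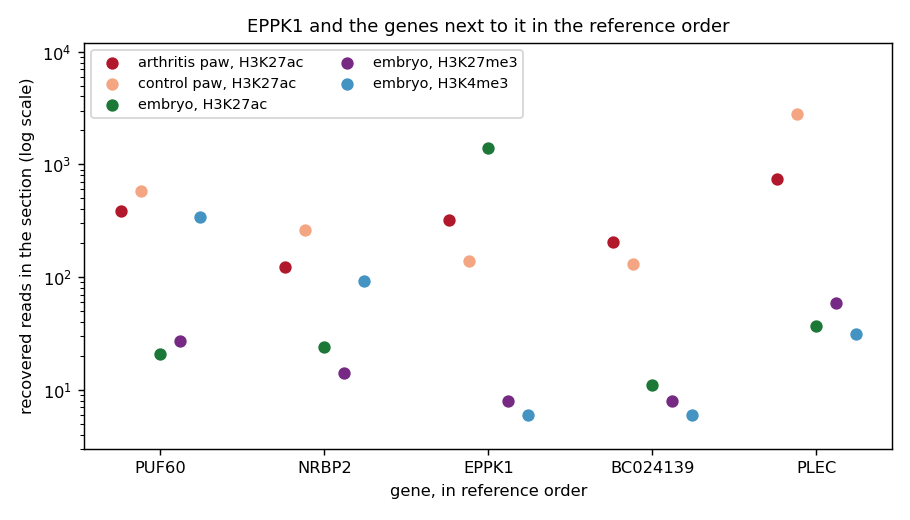
Recovered reads (vertical, log scale) at EPPK1 and at the nearest pair of protein-coding genes on either side in the reference order (horizontal), with 1 colour for each of the 5 sections that hold EPPK1. For embryo H3K27ac EPPK1 stands at 1407, a lower bound, and its neighbours at 11 to 37.

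Other genes of the epidermis and of cell junctions were set beside the members in the embryo. For H3K27me3 over H3K27ac the median was -0.19 over 14 other desmosome and plakin genes and -0.36 over 20 other epidermal transcription factors. It was -0.52 over 11 junction genes and 0.49 over 6 hemidesmosome genes, against -1.18 for the members. Of these 51 genes 4 were called higher and 6 lower, where 12.3% and 11.6% of all genes were. The AP-2 factor TFAP2A, which acts in surface ectoderm and neural crest, was lower (176 against at least 1118 reads, -3.09). So were CTNND1, the p120 catenin of adherens junctions (56 and 227, -2.39), and PERP, a p63 target in desmosomes (2 and 20, -2.38). ITGB4, the β4 integrin of hemidesmosomes, was higher (66 and 3 reads, 3.11), as were KRT8 of simple epithelium (81 and 11, 2.16) and DST, a plakin of hemidesmosomes and nerve (128 and 22, 1.95). For H3K27ac over H3K4me3, 10 of 49 related genes were called higher and 3 lower, where 12.9% and 12.3% of all genes were. TFAP2A was higher (at least 1118 against 41, 4.27), as were JUP, plakoglobin of the desmosome plaque (70 and 8, 2.40), and PKP4 (64 and 9, 2.14), whereas DSC2, a desmocollin of simple as well as stratified epithelia, was lower (7 and 75, -3.37). For H3K27me3 over H3K4me3, 7 of 50 were called higher, among them ITGB4 (66 and 3, 2.86), and 3 lower, among them DSC2 (10 and 75, -3.33). Over all genes 13.3% were called higher and 11.1% lower, so 7 of 50 is near the share of any genes.

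The brain served as a tissue without epidermis for the H3K4me3 signal. Relative to the 11127 genes held by both sections, the 5 members held had log2 ratios over the embryo of 0.93 (GRHL3, 104 and 7 reads), 0.77 (DSP, 69 and 5), 0.75 (TRP63, 145 and 12), 0.63 (PKP1, 71 and 6) and 0.39 (GRHL1, 264 and 30). Their median was 0.75 and that of all genes 0.66, with quartiles of 0.18 and 1.12, so all 5 fell inside the middle range of genes. None was called, 0 higher and 0 lower of 5, where 7.23% of genes were called higher and 11.7% lower. Of the related lists 5 of 38 held genes were higher, such as the bZIP factor MAF (at least 3442 against 96 reads, 2.41) and TJP1 (at least 1192 against 43, 2.01), and 3 were lower, such as DSC2 (130 and 75, -1.79).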

How the data were processed

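Histone-mark reads were counted per gene and array spot in 6 sections of mouse tissue, 1 per group. Per the labels' protocols, an antibody brought protein A-Tn5 from the array to the marked chromatin. The submitters' processing notes name MACS2, featureCounts and Bowtie2 and the builds mm9 and hg19, with no versions or roles. The deposited values are signal per gene and spot, quantile-normalised by the authors per the file names. Ties between genes had been broken by gene order in each spot, so each fall in that order marked 1 further read, and reads were recovered in this way. The tie order is inferred from the files. Recovery was taken as exact up to the first count with under 5 genes, and a gene with over 10% of its reads beyond it has a lower bound. Rank sums fell within 1% of the deposited list for 99.4% to 99.6% of ranks in the paws and brain, but for 51.0%, 83.8% and 51.8% in the embryo sections for H3K27ac, H3K27me3 and H3K4me3. Simulated data tested the recovery for the paws alone.

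Sections were compared over genes held by both, relative to their mean, as log2 ratios after a pseudocount of 0.1; a gene 1 unit or more from the median gene was called. Fold values and intervals (exact Poisson, conditional binomial, Clopper-Pearson) use no pseudocount. Members appear in all sections that hold them, and related genes by name where called, up to 5 in each direction per comparison. The members and lists were chosen with earlier results of these data known. Alternatives were the deposited signal, pseudocounts of 1 and 0.01, scaling to the median gene, a filter on low genes, odd or even columns, spot shares and omission of the deepest 5% of spots. Python 3.11.15, NumPy 2.4.6, pandas 2.3.3 and SciPy 1.17.1 were used.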

Additional observations from a re-analysis of the deposited data

How the results depend on the processing

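With 1 section per group no replicate could be left out. No paired analysis was possible because each group holds 1 section and the results come from no test. Over the 5 medians and the outer to inner ratios, 51 of 55 alternatives stayed within a wide counting error. Those 51 include moves by over 1.5 times: a pseudocount of 1 gave 0.12 for the paw median and -0.54 in place of -1.18 for embryo H3K27me3 over H3K27ac, and leaving out genes below the median signal gave 1.27 in place of 0.08 for H3K27me3 over H3K4me3. The paw median of 0.40 became 0.86 when genes below the median signal were left out, which kept 3 members. The embryo H3K27ac over H3K4me3 median of 1.29 became 2.11 with the deposited signal, 0.58 with a pseudocount of 1 and 2.02 without genes below the median signal. The GRHL3 ratio of H3K27me3 over H3K4me3 reversed from 1.53 to -0.34 with the deposited signal; the cause was not tested. Depth limits the embryo most, where the mean gene had 30.8 to 56.7 reads, and sums of genes with many reads per spot are lower bounds.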
